A study of Mus musculus with 10 samples.

Results

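The CXC chemokines examined here are 10 genes, Cxcl1, Cxcl2, Cxcl3, Cxcl9, Cxcl10, Cxcl12, Cxcl13, Cxcl14, Cxcl16 and Pf4, measured in mouse tumour-associated macrophages. They were taken by symbol, and each was present in all 10 tables, which list 21938 genes. Macrophages were sorted by fluorescence-activated cell sorting from mammary tumours that had grown for 5 weeks after PyMT tumour cells were injected into 2 mammary glands of C57BL/6 mice. RNA was read by SMART-Seq v4, a low-input method that copies whole transcripts, after 16 cycles of PCR and without a mark for the strand. The 3 control libraries came from wild-type mice bearing wild-type tumour cells. The 4 libraries labelled Mertk KO came from mice whose Mertk deletion is labelled as specific to macrophages, and their tumour cells were wild-type. The 3 Ptdss1 knockdown libraries came from wild-type hosts of tumour cells with lowered Ptdss1, so the sorted macrophages themselves had no engineered allele. The sources used here do not give the Cre driver, the deleted exons, the knockdown reagent or the age of the mice. Nothing in the labels ties each library to its own mouse, and p-values therefore reflect variation among these libraries, some of which may be technical.

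Chemokines are small proteins that steer the movement of white blood cells by binding receptors on their surface. Within the CXC family, Cxcl1, Cxcl2 and Cxcl3 carry a glutamate-leucine-arginine motif and attract neutrophils through the receptor Cxcr2, whereas Cxcl9 and Cxcl10 are induced by interferons and attract activated T cells and NK cells through Cxcr3. Cxcl12 and Cxcl13 organise the placement of cells through Cxcr4 and Cxcr5, Cxcl16 is made as a membrane protein that binds Cxcr6, and Pf4 is best known as a product of platelets. Mertk is a macrophage receptor for dying cells that display phosphatidylserine, and Ptdss1 encodes an enzyme that makes this lipid.

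Reads assigned to genes ranged from 10292592 to 25815071 per library. Control replicate 2 and Ptdss1 knockdown replicate 1 stood apart, with 9066 and 6995 genes at 10 or more reads against 9585 to 11523 in the others. The 10 macrophage markers fixed for the check (among them Csf1r, Adgre1, C1qa and Lyz2) all had at least 10 reads in every library and summed to 21980 to 44450 reads per 1000000 reads (RPM). Mertk itself had 9.96 ± 0.90 (SD, n = 3) log2 normalised reads in control, 9.64 ± 0.74 (SD, n = 4) in the libraries labelled Mertk KO and 8.89 ± 1.37 (SD, n = 3) with Ptdss1 knockdown. The libraries labelled Mertk KO held 616 to 1080 Mertk reads and overlapped the controls, which held 585 to 2748. Because the deleted exons are not stated, a value for the whole gene does not check that label, and Ptdss1 was lowered in the tumour cells, which were not sequenced. Levels below are log2(normalised reads + 1) unless another scale is named, with 1 added so that a gene without reads is at 0.

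To order the members by abundance, reads were divided by exon length and by library total (RPKM, reads per kilobase of exon per 1000000 reads). On this scale Cxcl9 had the highest median over the 10 libraries, 445, followed by Cxcl16 at 382, Cxcl10 at 292, Pf4 at 261 and Cxcl2 at 165. Cxcl14 followed at 22.3 and Cxcl1 at 4.03, and Cxcl12 had a median of only 0.0598. Cxcl3 and Cxcl13 had a median of 0. With the longest transcript as the length, Pf4 had a median of 319 and Cxcl10 of 295, so Pf4 then stood above Cxcl10. In Cxcl9 even the lowest library, at 179, stood above 98.6% of the listed genes. All 10 members together took 0.217% to 0.462% of the reads of a library. Neighbours in this order were compared within libraries by an exact two-sided sign-flip permutation test over 6 pairs, for which the smallest possible p is 0.00195. The pairs were set by the medians of the same 10 libraries, so these p-values do not test an order fixed beforehand. Cxcl2 lay above Cxcl14 in 9 of 10 libraries (adjusted p = 0.0234), and Cxcl14 above Cxcl1 in 8 of 10 libraries (adjusted p = 0.0469, exact permutation test). The top of the order was not resolved: Cxcl9 exceeded Cxcl16 in 6 of 10 libraries (adjusted p = 0.897, exact permutation test), Cxcl16 exceeded Cxcl10 in 7 (adjusted p = 0.0586), Cxcl10 exceeded Pf4 in 5 (adjusted p = 0.591) and Pf4 exceeded Cxcl2 in 7 (adjusted p = 0.202).

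**Figure D1:**
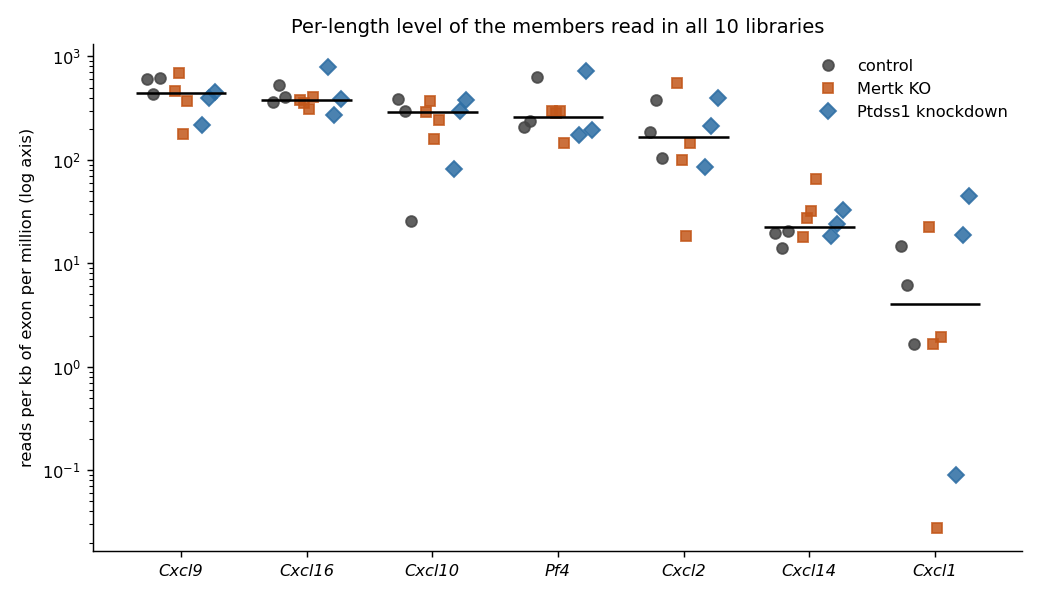
RPKM (log axis) for the 7 members with at least 1 read in all 10 libraries, with 1 point per library and a bar at the median over all libraries. Cxcl9, Cxcl16, Cxcl10, Pf4 and Cxcl2 have medians of 165 to 445, Cxcl14 and Cxcl1 have medians of 22.3 and 4.03, and control replicate 3 stands alone at the bottom of Cxcl10.

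No member passed the test in any of the 3 comparisons. All 10 libraries entered 1 limma fit over 11564 genes with at least 10 reads in at least 3 libraries, which 9 of the 10 members passed; Cxcl3 had 10 reads in only 2 libraries and was not tested. In the libraries labelled Mertk KO against control, 0 of 9 members were called at an adjusted p below 0.05, beside 2 of all genes (0.0173%), and no member had an unadjusted p below 0.05, beside 238 of all genes. In Ptdss1 knockdown against control, 0 of 9 were called, beside 0% of all genes, and again no member had an unadjusted p below 0.05, beside 335 of all genes. In Ptdss1 knockdown against the libraries labelled Mertk KO, 0 of 9 were called, beside 0% of all genes, and 1 member, Cxcl13, had an unadjusted p below 0.05, beside 431 of all genes. The other 8 members ranged there from -0.51 (SE 2.12) for Cxcl12 to 1.76 (SE 2.08) for Cxcl1, with limma adjusted p of 0.822 to 0.970. The Cxcl1 value was 0.17 without Ptdss1 knockdown replicate 3 and 4.28 without replicate 1. Limma-voom on the recovered reads also called 0 members in each comparison. None of the 9 had groups whose ranges failed to overlap, while 5.62% of all genes did so between the libraries labelled Mertk KO and control, 6.92% between Ptdss1 knockdown and control, and 5.23% between Ptdss1 knockdown and the libraries labelled Mertk KO. The median log2 fold change of the tested members was -0.42, 0.090 and 0.34 in these 3 comparisons, against 0.016, -0.053 and -0.11 over all genes. The bound given below for Cxcl13 could not move these medians, since it only set Cxcl13 farther out on the same side. The first 2 comparisons share their control libraries, and the third shares a group with each of them, so their values are not independent.

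**Figure D2:**
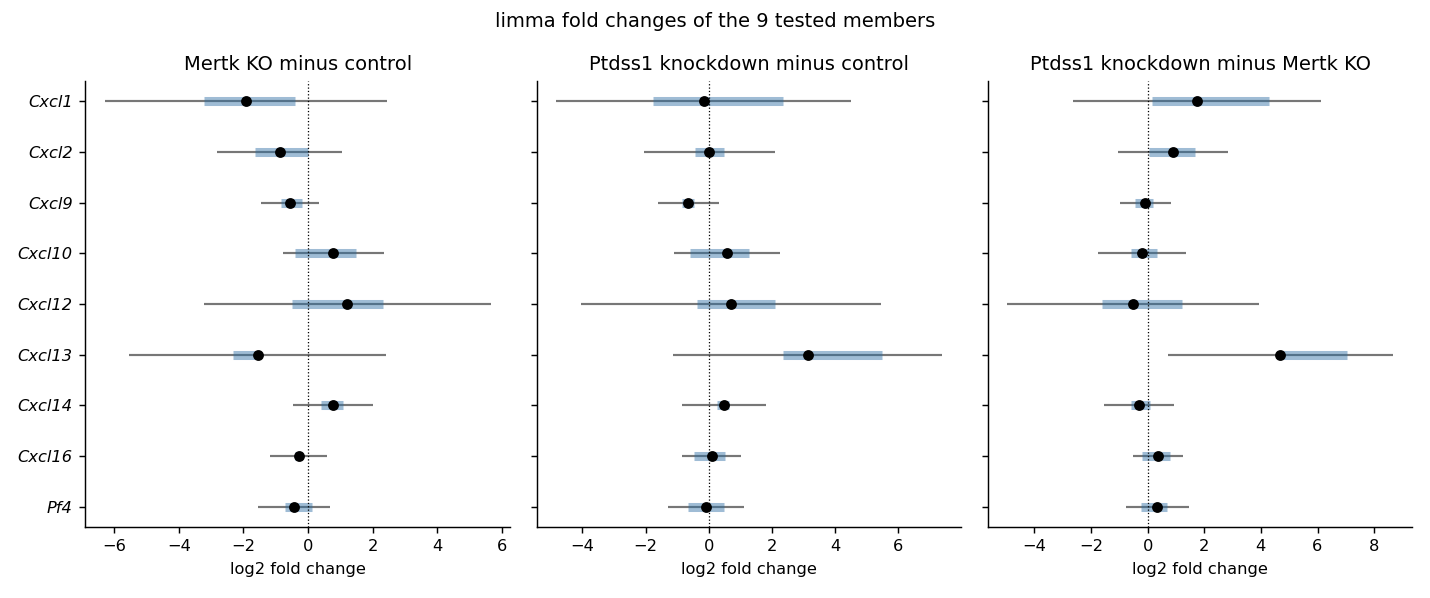
Log2 fold changes of the 9 tested members in the 3 comparisons, with the limma estimate (point), its 95% confidence interval (thin line) and the range when each library is left out in turn (thick band). For Cxcl13 the band covers 7 libraries, all without Cxcl13 reads. Of the 27 intervals, the one of Cxcl13 in Ptdss1 knockdown minus Mertk KO lies wholly above 0, and that difference did not pass the test after adjustment over all genes.

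**Figure D3:**
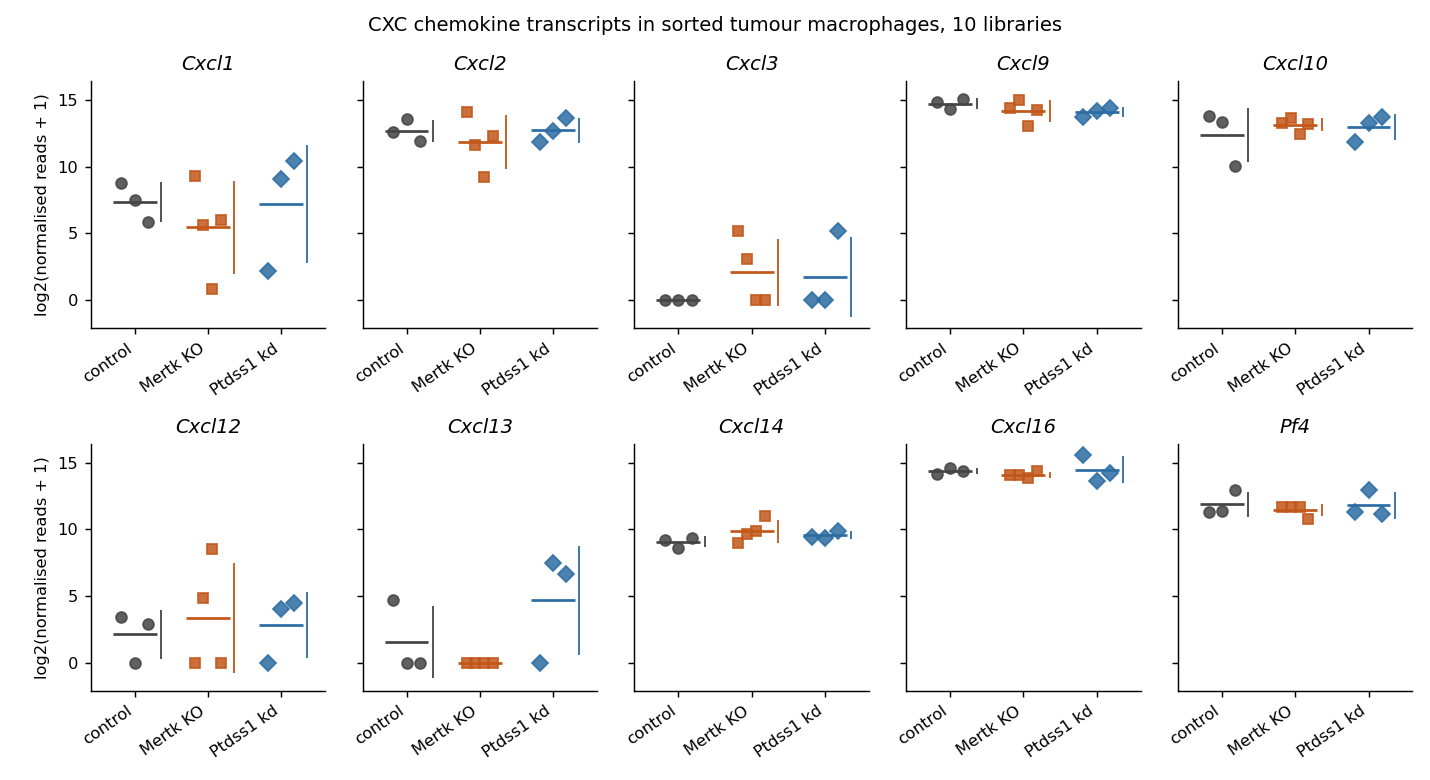
Log2(normalised reads + 1) of each member in each library, with a horizontal bar at the group mean and a vertical line of 1 SD to each side. Cxcl9 and Cxcl14 stay within an SD of 0.85 in each group, whereas Cxcl1, Cxcl12 and Cxcl13 spread over several log2 units within a group.

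Among the neutrophil-attracting members, Cxcl1 had the widest spread of all 10 members over the libraries (SD 3.12). It was at 8.79, 7.47 and 5.82 in control, at 9.31, 5.62, 0.86 and 5.97 in the libraries labelled Mertk KO, and at 2.16, 9.05 and 10.39 with Ptdss1 knockdown. The low ends were Mertk KO replicate 3, with 1 read, and Ptdss1 knockdown replicate 1, with 4 reads, while Ptdss1 knockdown replicate 3 held 2189 reads. The groups overlapped throughout. The log2 fold change of Cxcl1 was -1.92 (SE 2.08) in the libraries labelled Mertk KO against control and -0.16 (SE 2.23) in Ptdss1 knockdown against control (limma adjusted p = 1.00 and 0.995). Without Ptdss1 knockdown replicate 1 the latter was 2.36, so its sign rested on that library, and without control replicate 1 it was 0.56. Without Mertk KO replicate 3 the former was -0.39, and without Mertk KO replicate 1 it was -3.21.

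Cxcl2, the more abundant ligand of the same receptor, was at 12.59, 13.56 and 11.91 in control, at 14.07, 11.64, 9.21 and 12.32 in the libraries labelled Mertk KO, and at 11.80, 12.68 and 13.66 with Ptdss1 knockdown. Mertk KO replicate 3 was again the lowest library, with 729 reads, and Mertk KO replicate 1 the highest of all on this scale. The difference between the libraries labelled Mertk KO and control was -0.88 (SE 0.89, 95% interval -2.81 to 1.06), and it was -0.011 without Mertk KO replicate 3 and -1.63 without Mertk KO replicate 1. Ptdss1 knockdown and control differed by 0.026 (SE 0.95), with an interval from -2.04 to 2.09, and the sign turned without control replicate 1 (-0.022), without control replicate 3 (-0.36) or without Ptdss1 knockdown replicate 3 (-0.45). Cxcl3, the third neutrophil-attracting member, was listed at 0 in all 3 controls. It had 24, 9, 0 and 0 reads in the libraries labelled Mertk KO and 0, 0 and 58 reads with Ptdss1 knockdown. A count of 0 allows up to 3 reads, or 0.116 to 0.291 RPM for a single library, and this covers counting error only, since PCR copies are not independent molecules. Against 3 reads over the control group, Cxcl3 was at least 9.23-fold higher in the libraries labelled Mertk KO and at least 17.4-fold higher with Ptdss1 knockdown, but each value came from 1 or 2 libraries. Both libraries with at least 10 Cxcl3 reads, Mertk KO replicate 1 and Ptdss1 knockdown replicate 3, were also the highest for Cxcl2. Because 2.78% of the 75-base windows of Cxcl3 are identical to windows of Cxcl2, a part of so few reads could belong to either gene. In Cxcl2 the shared part was 4.57% of windows, and in Cxcl1 it was 0%.

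Cxcl1 and Cxcl2 varied together across the 10 libraries, and theirs was the only correlation to pass after adjustment among the 21 pairs of the 7 members read in every library. Pearson's r was 0.863 (permutation p = 0.00058, adjusted p = 0.0122) and Spearman's rho was 0.939 (permutation p = 0.00022, adjusted p = 0.00462). Leaving out the 2 libraries farthest from the Cxcl1 median, Mertk KO replicate 3 and Ptdss1 knockdown replicate 1, gave r = 0.773. After the group means were removed r was 0.849, and without the 2 libraries of fewest detected genes it was 0.951. With 1 library left out it ranged from 0.761, without Mertk KO replicate 3, to 0.923, without Ptdss1 knockdown replicate 1. The per-length ratio of Cxcl2 to Cxcl1 was far from fixed, and ran from 8.74 to 933. No sequencing date or batch is given in the labels, so the relation was not recomputed within batches. The genes of most similar pattern to Cxcl2, out of 5944 genes with at least 10 reads in every library, were Zfp445, a zinc finger protein (r = 0.867), Noct, the circadian phosphatase nocturnin (r = 0.857), and Fryl (r = 0.847), each over 10 libraries.

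**Figure D4:**
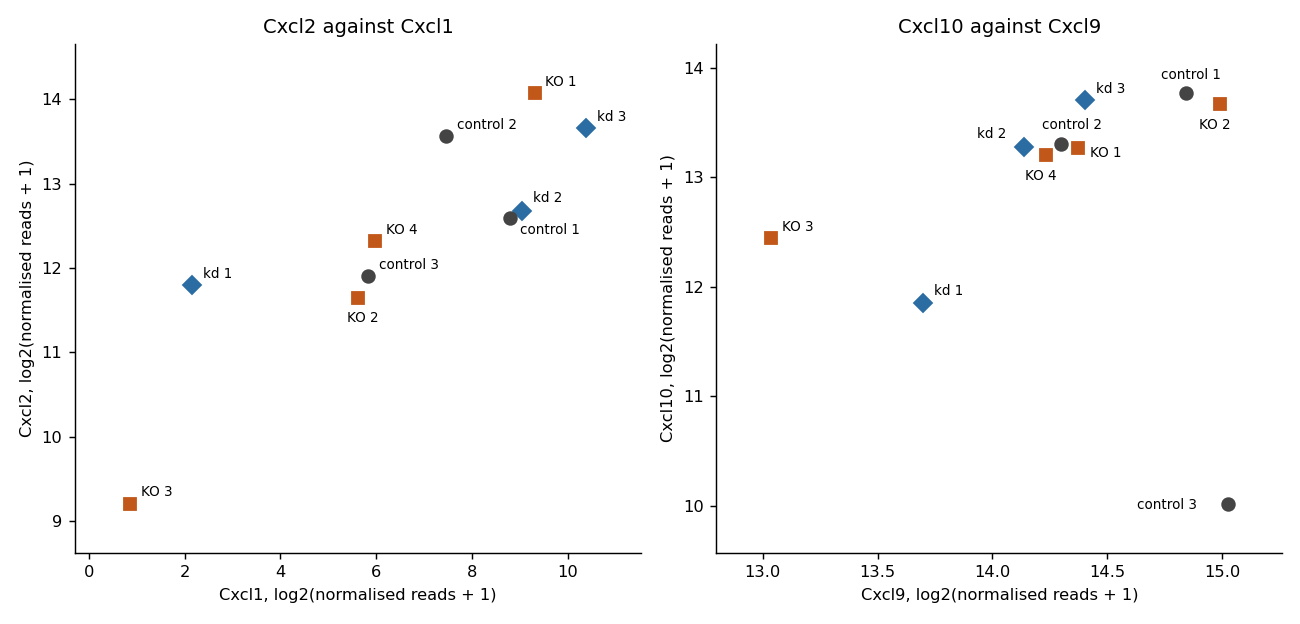
Log2(normalised reads + 1) of Cxcl2 against Cxcl1 (left) and of Cxcl10 against Cxcl9 (right), with 1 labelled point per library (KO, labelled Mertk KO; kd, Ptdss1 knockdown). Cxcl1 and Cxcl2 rank the libraries alike (rho = 0.939), and in the right panel control replicate 3 lies far below the other libraries in Cxcl10.

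The neutrophil-attracting genes lie in 1 cluster, with Cxcl15 between Cxcl3 and Cxcl1, and share a stretch of promoter, which is shown here because Cxcl1 and Cxcl2 varied together. In GRCm38 (GENCODE M21), the members there are Pf4 (chr5:90772435-90773383, plus strand), Cxcl3 (chr5:90786103-90789600, plus strand), Cxcl1 (chr5:90891241-90893115, plus strand) and Cxcl2 (chr5:90903871-90905938, plus strand). They are protein-coding genes and together span 133.5 kb. The 250 bases before each RefSeq start (GRCm38.p6) are given 5′ to 3′ on the coding strand, at chr5:90890995-90891244 for Cxcl1, chr5:90903649-90903898 for Cxcl2 and chr5:90785851-90786100 for Cxcl3, with matches to the kappaB motif of the NF-kB family in capitals.
Cxcl1: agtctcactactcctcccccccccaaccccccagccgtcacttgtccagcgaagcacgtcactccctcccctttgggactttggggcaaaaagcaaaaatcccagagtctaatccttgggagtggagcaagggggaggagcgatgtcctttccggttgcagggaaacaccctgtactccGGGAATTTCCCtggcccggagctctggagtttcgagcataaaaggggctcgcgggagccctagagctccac
Cxcl2: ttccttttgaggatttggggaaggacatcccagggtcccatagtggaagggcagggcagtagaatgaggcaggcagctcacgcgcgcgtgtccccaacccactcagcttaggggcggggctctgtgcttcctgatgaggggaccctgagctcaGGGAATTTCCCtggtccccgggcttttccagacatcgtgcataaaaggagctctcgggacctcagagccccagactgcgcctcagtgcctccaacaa
Cxcl3: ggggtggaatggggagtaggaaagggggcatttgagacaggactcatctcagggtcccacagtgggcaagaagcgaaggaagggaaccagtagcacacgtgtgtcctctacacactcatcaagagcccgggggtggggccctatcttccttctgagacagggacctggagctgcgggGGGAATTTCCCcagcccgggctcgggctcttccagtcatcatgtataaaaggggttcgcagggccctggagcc
All 3 hold the same 11 letters, GGGAATTTCCC, at 71 to 61 bases before the start in Cxcl1, 97 to 87 in Cxcl2 and 73 to 63 in Cxcl3. In each case these letters hold 2 overlapping kappaB matches of 10 bases, 1 on each strand. Windows from 250 bases before to 50 bases after the start were searched on both strands for 9 members and for all 32851 RefSeq windows of the same length. A kappaB match was present in 4 of the 9 members (Cxcl1, Cxcl2, Cxcl3 and Cxcl10) and in 4.51% of all windows, and the letters GGGAATTTCCC in 14 windows, or 0.0426%. A match describes the letters and does not show that a factor bound there.

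The ligands of Cxcr3 were among the most abundant members and were not distinguished between the groups. Cxcl9 was at 14.84, 14.30 and 15.02 in control, at 14.37, 14.99, 13.04 and 14.23 in the libraries labelled Mertk KO, and at 13.70, 14.14 and 14.40 with Ptdss1 knockdown. Control replicates 1 and 3 lay toward the top and control replicate 2 near the middle, and the groups overlapped. The difference from control was -0.56 (SE 0.43, 95% interval -1.46 to 0.34) in the libraries labelled Mertk KO and -0.64 (SE 0.46, interval -1.60 to 0.32) with Ptdss1 knockdown (limma adjusted p = 1.00 and 0.841). Both kept their sign with each library left out, between -0.84 and -0.19 and between -0.85 and -0.45, and the value nearest to 0 was the one without Mertk KO replicate 3. Summed markers of NK cells, a source of interferon gamma, were 93.5 to 210 RPM in control. They were 14.5 to 50.5 in the libraries labelled Mertk KO and 61.3 to 145 with Ptdss1 knockdown. Of the 4 NK cell markers tested, 4 were lower than control in the libraries labelled Mertk KO (median log2 fold change -2.31). With Ptdss1 knockdown 3 were lower and 1 higher (median -1.05), and 0 were called in either comparison. Summed T cell markers were 30.5 or less in all libraries. Klrk1, Nkg7 and Gzma made up most of the NK cell sums, and Ncr1 had at most 2 reads in any library. Control replicate 2 held 0 reads of Ncr1, Klrb1c and Gzma. Ifng had no reads in control, 34 and 20 in Mertk KO replicates 1 and 2, and 10 in Ptdss1 knockdown replicate 2. The part of NK and T cells in the level of Cxcl9 was not tested, and in a bulk sample fewer cells of a type and less RNA per cell cannot be told apart.

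Cxcl10 was at 13.77, 13.31 and 10.02 in control, at 13.27, 13.67, 12.45 and 13.20 in the libraries labelled Mertk KO, and at 11.85, 13.28 and 13.71 with Ptdss1 knockdown. Control replicate 3 was the lowest of the 10 libraries, with 1417 reads, although it was the highest for Cxcl9, with 45531 reads. The per-length ratio of Cxcl9 to Cxcl10 was 24.0 in that library and 1.13 to 2.68 in the other 9. Direction against control depended on it. The fold change was 0.78 (SE 0.73, interval -0.78 to 2.34) in the libraries labelled Mertk KO and -0.39 without control replicate 3, and 0.58 (SE 0.78, interval -1.09 to 2.25) with Ptdss1 knockdown and -0.59 without it. Without control replicate 1 these were 1.48 and 1.28. Across the 10 libraries Cxcl9 and Cxcl10 had r = 0.0234 (permutation p = 0.944, adjusted p = 0.944) and rho = 0.345 (adjusted p = 0.818). Without control replicate 3 r was 0.819. Without that library and Mertk KO replicate 3, the 2 farthest from the median of Cxcl9, it was 0.843.

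Control replicate 3 was also the lowest library for Gbp5. This gene, a guanylate-binding protein induced by interferon gamma, had 55 reads there and 322 to 3383 in the other libraries. Of the 19 genes of the interferon gamma list, this library was the lowest in 5. Ptdss1 knockdown replicate 1 was the highest in 13 of the 19, and in Irf9, a subunit of an interferon-activated transcription factor, it held 10911 reads against 438 to 1845 elsewhere. The gene of most similar pattern to Cxcl10 was Krcc1 (r = 0.919), followed by the chemokines Ccl7 (r = 0.896) and Ccl12 (r = 0.881), which attract monocytes. For Cxcl9 these were Cwc15, a splicing factor (r = 0.950), Hsd17b10, a mitochondrial dehydrogenase (r = 0.944), and Sat1, an enzyme of polyamine breakdown (r = 0.940).

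Cxcl9 (chr5:92321347-92328079, minus strand) and Cxcl10 (chr5:92346638-92348889, minus strand) together span 27.5 kb, at 1415 kb from Cxcl2. The promoter of Cxcl10 is shown because it alone among the 9 members held matches to both the kappaB and an interferon motif, the interferon-stimulated response element searched as GAAA, any 2 bases and GAAA. These are the 250 bases before its start, at chr5:92348890-92349139, read 5′ to 3′ on the coding minus strand, with all 3 matches in capitals.
Cxcl10: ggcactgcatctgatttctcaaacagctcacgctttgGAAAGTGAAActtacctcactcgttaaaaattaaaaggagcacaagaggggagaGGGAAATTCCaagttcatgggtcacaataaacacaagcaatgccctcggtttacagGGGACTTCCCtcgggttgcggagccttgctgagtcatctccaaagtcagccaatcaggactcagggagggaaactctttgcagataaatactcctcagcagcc
The response element GAAAGTGAAA lies 213 to 204 bases before the start, and the kappaB matches GGGAAATTCC and GGGACTTCCC lie at 159 to 150 and 103 to 94, with no overlap among the 3. The response element was found in 3.44% of all windows, and the motif TTCNNNGAA of interferon-activated STAT factors in 8.30%. Cxcl9 held no match to any of the 3 motifs in its window, which says nothing about sites elsewhere. Cxcl10 overlaps Art3 on the opposite strand, and 2.47% of its windows lie in both genes. Art3 had 0 to 120 reads.

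Cxcl12 and Cxcl13, which place cells in tissue, had at least 10 reads in 5 and 3 of the 10 libraries. Cxcl12 (chr6:117168535-117181367, plus strand) was at 3.43, 0 and 2.92 in control, at 0, 4.85, 8.48 and 0 in the libraries labelled Mertk KO, and at 0, 4.0 and 4.45 with Ptdss1 knockdown. Mertk KO replicate 3 held 440 reads and no other library more than 34. The fold change against control was 1.22 (SE 2.12) in the libraries labelled Mertk KO and -0.50 without replicate 3 of that group. With Ptdss1 knockdown it was 0.70 (SE 2.26), and it turned to -0.36 without control replicate 2 and to -0.12 without Ptdss1 knockdown replicate 3. The same Mertk KO replicate 3 had 9573 reads of Cd209a, a marker of monocyte-derived dendritic cells, and this gene made up nearly all of its dendritic marker sum of 509 RPM. Other dendritic markers were not at their highest there, with 0 reads of Ccr7 and Fscn1, 3 of Zbtb46, 66 of Flt3, 57 of Xcr1 and 86 of Clec9a. The sums were 7.59 to 12.5 in control, 0 to 509 in the libraries labelled Mertk KO and 0.0853 to 142.5 with Ptdss1 knockdown. It also held 413 reads of Cxcr3 against 42 or fewer elsewhere. Fibroblast markers, whose cells are a known source of Cxcl12, summed to 2.08 there and to 57.9 and 61.8 in replicates 2 and 4 of that group, which held 34 and 0 reads of Cxcl12, and Lum was at 0 in all libraries. The part of other cells in the Cxcl12 value was not tested.

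Cxcl13 (chr5:95956951-95961068, plus strand), the attractant of B cells, was at 4.67, 0 and 0 in control, at 0 in all 4 libraries labelled Mertk KO, and at 0, 7.43 and 6.64 with Ptdss1 knockdown. Reads were 30 in control replicate 1, and 183 and 161 in Ptdss1 knockdown replicates 2 and 3. Over the summed reads of a group, with 3 reads as the floor of the libraries labelled Mertk KO, Ptdss1 knockdown was at least 123-fold higher. Control was at least 11.9-fold higher, with all of its reads from replicate 1. These bounds cover counting error and not the spread among libraries. In the libraries labelled Mertk KO minus control, the fitted difference was -1.56 (SE 1.89, 95% interval -5.53 to 2.42, limma unadjusted p = 0.422). The fitted difference between Ptdss1 knockdown and the libraries labelled Mertk KO was 4.69 (SE 1.89, 95% interval 0.71 to 8.67), higher in 2 of 3 libraries, with an unadjusted p of 0.0234 and a limma adjusted p of 0.805. It was 6.77 with limma's library weights (adjusted p = 0.0160) and 7.04 without Ptdss1 knockdown replicate 1. With these weights 35 of all 11564 genes were called in this comparison, against 0 in the main fit. The weights were lowest for Ptdss1 knockdown replicate 1, the knockdown library without Cxcl13 reads. Against control the fold change was 3.14 (SE 2.02, adjusted p = 0.841), from 2.36 without control replicate 2 to 5.48 without Ptdss1 knockdown replicate 1. Of the 5 B cell markers, 4 had at least 10 reads in Ptdss1 knockdown replicate 2 and 2 in replicate 3. Their sums were 42.4 and 9.03 RPM there and 0.0427 in replicate 1, against 0 to 2.06 in control and 0 to 5.30 in the libraries labelled Mertk KO. Cd79a and Pax5 were read only in Ptdss1 knockdown replicate 2. Markers of other cells were also read in that library. All 7 dendritic markers had at least 10 reads there (142.5 RPM), and its T cell sum, 30.45 RPM, was the highest of the 10 libraries. The part of B cells or of other cells in the Cxcl13 value was not tested.

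**Figure D5:**
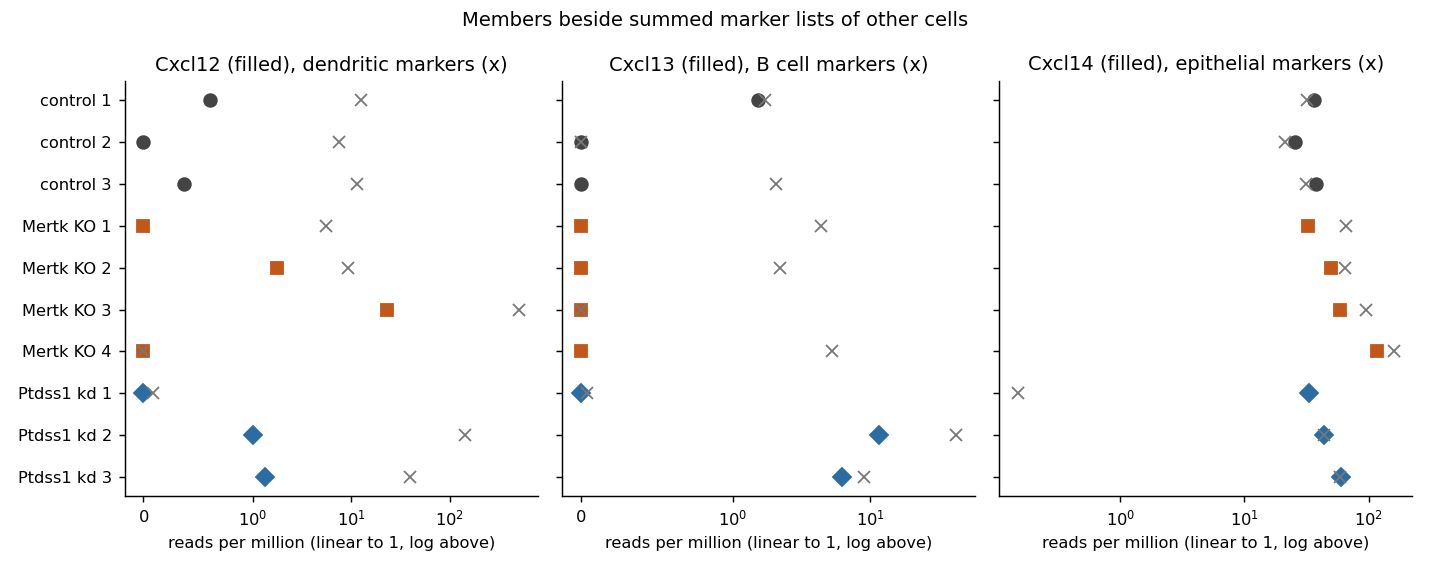
RPM of Cxcl12, Cxcl13 and Cxcl14 (filled symbols) beside the summed markers of dendritic, B and epithelial cells (crosses) in each library, on an axis that is linear up to 1 and logarithmic above. The highest Cxcl12 value and the highest dendritic sum, which there is nearly all Cd209a, both fall in Mertk KO replicate 3. The highest Cxcl13 and B cell values fall in Ptdss1 knockdown replicate 2, where the dendritic sum was 142.5 RPM.

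Cxcl14, a chemokine made in many epithelia, spread less within groups than the other members of low abundance that were tested, Cxcl1, Cxcl12 and Cxcl13. It was at 9.19, 8.61 and 9.38 in control, at 8.94, 9.61, 9.85 and 10.98 in the libraries labelled Mertk KO, and at 9.41, 9.36 and 9.88 with Ptdss1 knockdown. Mertk KO replicate 4 was the highest, with 2519 reads, and replicate 1 of that group lay within the control range. The fold change was 0.79 (SE 0.59, interval -0.45 to 2.03) in the libraries labelled Mertk KO, where it had the smallest unadjusted p of the members, 0.200 (limma adjusted p = 1.00). It was 0.41 without Mertk KO replicate 4. With Ptdss1 knockdown it was 0.49 (SE 0.63, interval -0.83 to 1.82), and 0.27 without control replicate 2. Summed epithelial markers were 21.3 to 31.9 RPM in control, 64.1 to 159.5 in the libraries labelled Mertk KO, with the highest in replicate 4, and 0.256 to 58.9 with Ptdss1 knockdown. Much of these sums was 1 gene, Cdh1. In Mertk KO replicate 3, Cdh1 had 1849 reads, Krt8 had 1 and Epcam and Krt18 had 0. In Mertk KO replicate 4, the highest library for Cxcl14, Krt8 had 1535 reads, Krt18 647 and Cdh1 1218. Elsewhere Krt8 had at most 236 reads and Krt18 at most 158. Of the 5 epithelial markers tested, 2 were higher and 3 lower than control in the libraries labelled Mertk KO, with a median log2 fold change of -0.18 and 0 called. The part of epithelial cells in the Cxcl14 value was not tested. Ptdss1 knockdown replicate 1 had 783 reads of Cxcl14 with epithelial markers at 0.256 RPM. Cxcl14 (chr13:56288643-56296551, minus strand) held a response element match, GAAACAGAAA, 172 to 163 bases before its start and a STAT match, TTCTGAGAA, 191 to 183 bases before it. The genes of most similar pattern were Pde6d, Stx7 and Abhd12, with r of 0.840 to 0.843.

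Cxcl16, which tethers Cxcr6-bearing T cells in its membrane form, lay between 13.59 and 14.57 in 9 of the 10 libraries. It was at 14.11, 14.57 and 14.39 in control, at 14.07, 14.03, 13.84 and 14.34 in the libraries labelled Mertk KO, and at 15.57, 13.59 and 14.18 with Ptdss1 knockdown. Ptdss1 knockdown replicate 1, the library of fewest detected genes, was the highest, with 55908 reads, and replicate 2 of that group was the lowest. The difference from control was -0.29 (SE 0.42, interval -1.17 to 0.59) in the libraries labelled Mertk KO and 0.090 (SE 0.45, interval -0.85 to 1.03) with Ptdss1 knockdown. The latter was -0.47 without Ptdss1 knockdown replicate 1 and -0.033 without control replicate 1. Errfi1, an inhibitor of the EGF receptor, had the most similar pattern (r = 0.973), followed by Pde4dip (r = 0.970) and Zdhhc3 (r = 0.968), and their r fell to between 0.825 and 0.861 without the 2 libraries of fewest detected genes. Cxcl16 (chr11:70453983-70459984, minus strand) overlaps Zmynd15 on the other strand, and 15.4% of its windows lie in both. Zmynd15 had 669 to 21022 reads, so without strand a part of the Cxcl16 reads is uncertain. The highest Zmynd15 count was in Ptdss1 knockdown replicate 3, where Cxcl16 was at 14.18.

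Pf4 was read in every library, with 2186 to 10988 reads. It was at 11.25, 11.37 and 12.97 in control, at 11.65, 11.63, 11.69 and 10.80 in the libraries labelled Mertk KO, and at 11.30, 12.93 and 11.12 with Ptdss1 knockdown. Control replicate 3 and Ptdss1 knockdown replicate 2 stood above the rest, with 10988 and 8322 reads against 2186 to 4082. The difference from control was -0.42 (SE 0.53, interval -1.54 to 0.69) in the libraries labelled Mertk KO and -0.080 (SE 0.57, interval -1.27 to 1.11) with Ptdss1 knockdown. Without control replicate 3 these were 0.13 and 0.47, so neither sign held, and the latter was also above 0 without Ptdss1 knockdown replicate 1 (0.16) or 3 (0.25). The 10 platelet markers summed to 0 to 16.0 RPM, with Gp9 and Tubb1 at 0 in all libraries and Clec1b, with up to 197 reads, read in 8 of 10. These sums were 1.94 in control replicate 3 and 7.10 in Ptdss1 knockdown replicate 2, and 0 in Mertk KO replicate 4, which held 2222 reads of Pf4. The part of platelets in the Pf4 value was not tested. The 3 genes of most similar pattern all encode ribosomal proteins: Rpsa (r = 0.908), Rpl10a (r = 0.844) and Rps19 (r = 0.840). They were picked as the highest r of 5944 genes over 10 libraries, and a relation to Pf4 was not tested.

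The other CXC ligands were close to absent. Of 5 on the list, Cxcl11 was not matched in the tables, Cxcl17 was at 0 in all libraries, and Cxcl5, Ppbp and Cxcl15 reached 36, 87 and 5 reads in their highest library, so none was tested. Of the 10 receptors, 3 were tested and 0 called in each comparison. Cxcr1, Ackr1 and Ackr2 were at 0 in all libraries, and Cxcr2, the receptor of the neutrophil attractants, had 0 to 35 reads. Cxcr4, the Cxcl12 receptor, had 79 to 3897 reads, with a fold change of -1.80 (SE 0.94, limma adjusted p = 0.841) in Ptdss1 knockdown against control. It was -0.85 without Ptdss1 knockdown replicate 1. Ackr3, a scavenger receptor of Cxcl12, had the smallest p of the list in the other 2 comparisons, with 2.88 (SE 2.28) in the libraries labelled Mertk KO against control and -3.64 (SE 2.28) in Ptdss1 knockdown against them. The former was 1.63 without control replicate 1 and 5.39 without control replicate 3, and the latter -2.40 without Mertk KO replicate 3 and -5.43 without Mertk KO replicate 4. Markers of neutrophils, the cells that carry Cxcr2, summed to 29.4 to 277 RPM, most of it Csf3r, with S100a9, Ly6g and Camp at 0 in all libraries.

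Proteases that cut chemokines gave the smallest p of these lists, and 0 of 6 tested members were called in each comparison. Mmp12, the macrophage elastase, was at 9.28, 12.73 and 10.85 in control, at 13.33, 12.28, 11.91 and 11.99 in the libraries labelled Mertk KO, and at 13.73, 12.62 and 13.72 with Ptdss1 knockdown. Control replicate 2 overlapped both other groups. The fold change was 1.43 (SE 0.63, limma adjusted p = 1.00) in the libraries labelled Mertk KO and 2.41 (SE 0.67, unadjusted p = 0.00205, adjusted p = 0.841) with Ptdss1 knockdown. Both passed the test with limma's library weights, at 2.53 (limma adjusted p = 0.0478) and 3.35 (adjusted p = 0.0368). These weights called 25 and 2 of all 11564 genes in the same comparisons. They gave control replicate 2, the control that overlapped, 0.28, against 2.18 and 1.26 for control replicates 1 and 3. Without control replicate 1 the Mmp12 fold changes were 0.59 and 1.57, and without control replicate 2 they were 2.31 and 3.29. Dpp4, which trims the start of Cxcl9, Cxcl10 and Cxcl12, was higher by 5.04 (SE 2.18, adjusted p = 0.805) in Ptdss1 knockdown than in the libraries labelled Mertk KO, of which 2 were at 0 and replicate 3 at 8.49.

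Genes upstream of the members showed the same lack of calls. In the interferon gamma list, 19 of 19 genes were tested and 0 called. Ifng itself had 34 and 20 reads in Mertk KO replicates 1 and 2, 10 in Ptdss1 knockdown replicate 2 and none elsewhere. Their median log2 fold change was 0.31 in the libraries labelled Mertk KO against control (13 higher, 6 lower) and 0.41 in Ptdss1 knockdown against control (15 higher, 4 lower). Gbp2, another guanylate-binding protein, was at 13.35 ± 0.21 (SD, n = 4) in the libraries labelled Mertk KO and 12.27 ± 0.39 (SD, n = 3) in control, a difference of 1.08 (SE 0.43, limma adjusted p = 1.00). Each of the 4 libraries lay above the highest control, as ranges failed to overlap for 5.62% of all genes in this comparison, and the difference stayed between 0.88 and 1.28 with each library left out. Irf9 had 1.69 (SE 0.70, adjusted p = 0.841) with Ptdss1 knockdown and 0.67 without replicate 1 of that group. Gbp7 was at -1.01 (SE 0.47, adjusted p = 0.805) in Ptdss1 knockdown against the libraries labelled Mertk KO and at -0.52 without the same library.

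In the list of NF-kB and Toll-like receptor genes, 20 of 20 were tested and 0 called, with medians of 0.37 and 0.42 against control. Ptdss1 knockdown replicate 1 was the highest library in 11 of the 20 genes and control replicate 3 the lowest in 8. Tlr4, the receptor of bacterial endotoxin, had 0.97 (SE 0.60, limma adjusted p = 1.00) in the libraries labelled Mertk KO, and Nfkbiz, an inducible regulator of NF-kB, 1.30 (SE 0.66, adjusted p = 0.841) with Ptdss1 knockdown, or 1.99 without control replicate 1. Tnf had -2.55 (SE 1.37, adjusted p = 0.805) in Ptdss1 knockdown against the libraries labelled Mertk KO, -0.39 without Ptdss1 knockdown replicate 1, which held 11 Tnf reads, and -4.51 without replicate 3. In the hypoxia list, 7 of 8 genes were matched and tested and 0 called, with medians of 0.42 and 0.38 against control. Pgk1, a glycolytic enzyme, had 0.46 (SE 0.43, adjusted p = 1.00) in the libraries labelled Mertk KO, 0.24 without control replicate 1 and 0.90 without control replicate 3. Vegfa, a growth factor for vessels, had -0.88 (SE 0.70, adjusted p = 0.841) with Ptdss1 knockdown against control, and -0.16 without control replicate 3. Against the libraries labelled Mertk KO it had -1.14 (SE 0.65, adjusted p = 0.805), and -0.48 without Ptdss1 knockdown replicate 1.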

How the data were processed

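RNA was measured in 10 libraries of sorted tumour macrophages (3 control, 4 labelled Mertk KO, 3 Ptdss1 knockdown). The submitters' processing notes name STAR, RSEM and the build mm10, with no versions, and the annotation and the way of normalising were not given in the sources used here. Deposited values were in log2 units. They carry a decimal comma, and their scale was found from the values: 2 to the power of the value, minus 1, gave whole multiples of the value of 1 read in every library, so that reads were recovered whole (100% within a tolerance of 0.01) and read as log2(normalised reads + 1), with no deposited value column left unused. Genes with at least 10 reads in at least 3 libraries (11564) entered limma 3.58.1 (R 4.3.3), with a trend, robust moderation and a mean per group, two-sided, with Benjamini-Hochberg adjustment over all genes and a threshold of 0.05. Because the deposited values are normalised log2 values, this log-scale test was the one reported, with limma-voom on the recovered reads as an alternative. The fit was also run on simulated counts with the same relative spread for every gene, which does not test it at the spread seen here. Fold changes on this scale understate changes of low genes.

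Per-length levels used GENCODE M21 exon lengths, whose IDs matched all 21938 genes. Correlations, exact tests and figures used Python 3.11.15, numpy 2.4.6, scipy 1.17.1 and pandas 2.3.3, with 100000 permutations per correlation. Promoters were matched by symbol in the RefSeq table for 9 of 10 members; Cxcl16 was the exception. The members and gene lists were chosen with earlier results of these data known. All members were named in each comparison, and of each list up to 4 genes of smallest unadjusted p per comparison, of which the first is given. Ifng, Gbp5, Cxcr2, Cxcr3, single cell type markers and genes at or near 0 were named after their values were seen. For similar patterns, the 3 genes of highest r among 5944 were named for each member, without a test. The highest of so many r over 10 libraries can be large without any relation between the genes. Libraries were numbered by accession order within a group. The alternatives were other size factors, filters, moderation, pseudocounts, library weights, voom, fits of 2 groups and leaving out libraries.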

Additional observations from a re-analysis of the deposited data

Results flagged for a closer look

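Pf4 in the libraries labelled Mertk KO had 1 library far from the others. Replicate 4 was at 10.80 log2(normalised reads + 1), while the other 3 libraries of the group lay between 11.63 and 11.69. Its gap to the nearest library was 0.932 of the range of the group, above Dixon's 95% critical value for 4 samples, which chance exceeds in about 1 of 20 groups. Pf4 was 1 of 9 members checked in this way in this group, and the others had gaps of 0.409 to 0.621 of their range. Groups of 3 libraries were not checked. In the same library the epithelial markers were the highest of the 10 libraries (159.5 RPM) and the platelet markers were at 0. Their part in the Pf4 value was not tested.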

How the results depend on the processing

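The 27 fold changes of the 9 tested members were recomputed under 10 alternatives to the processing (264 values, since Cxcl12 and Cxcl13 had no value with at least 50 reads in 3 libraries) and with each of the 10 libraries left out (261 values, since Cxcl13 was not testable without control replicate 1 or Ptdss1 knockdown replicate 2 or 3). Many of these values were bound to equal the main one, since a fold change depends only on the means of its 2 groups. Leaving out a library of the third group did not move it, nor did a change of filter, of moderation or of the groups in the fit. The direction turned in 17 and 24 of the 264 and 261 values, and 12 of the 27 fold changes never turned. Among these were Cxcl9 and Cxcl14 against control and all 3 of Cxcl13. Cxcl13 had no reads in any library labelled Mertk KO, and the libraries that held its reads could not be left out. Its direction was thus largely fixed in advance. No member was called with a library left out. With library weights 1 was called, Cxcl13 in Ptdss1 knockdown minus Mertk KO (6.77), beside 35 of all 11564 genes. For Ptdss1 knockdown minus control, Cxcl1 turned to 2.25 with library weights, 0.14 with voom, 0.22 with a pseudocount of 8 and 2.42 without the 2 libraries of fewest detected genes; Cxcl16 to -0.20 with weights, -0.13 with upper-quartile factors and -0.36 without those 2 libraries; and Cxcl2 to -0.19 with upper-quartile factors. For Mertk KO minus control, Cxcl12 was -0.010 with weights. For Ptdss1 knockdown minus Mertk KO, weights gave 0.16 for Cxcl10, 1.29 for Cxcl12, 0.23 for Cxcl14 and -0.018 for Cxcl16, and leaving out those 2 libraries gave 0.35, 0.89 and -0.18 for Cxcl10, Cxcl12 and Cxcl16 and 0.11 for Cxcl9. The cause was not tested.

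With 1 library left out, the Mertk KO minus control values ranged from -0.39 to 1.48 for Cxcl10, -0.50 to 2.33 for Cxcl12 and -0.73 to 0.13 for Pf4. Ptdss1 knockdown minus control ranged from -1.75 to 2.36 for Cxcl1, -0.45 to 0.48 for Cxcl2, -0.59 to 1.28 for Cxcl10, -0.36 to 2.11 for Cxcl12, -0.47 to 0.52 for Cxcl16 and -0.65 to 0.47 for Pf4. Ptdss1 knockdown minus Mertk KO ranged from -0.45 to 0.20 for Cxcl9, -0.58 to 0.35 for Cxcl10, -1.63 to 1.2 for Cxcl12, -0.59 to 0.085 for Cxcl14, -0.18 to 0.80 for Cxcl16 and -0.23 to 0.68 for Pf4. Over all genes, the 2 calls of Mertk KO minus control became 0 with upper-quartile factors, 0 with no filter, 0 with at least 50 reads, 1 without robust moderation, 25 with library weights and 0 to 4 with a library left out. Library weights gave 2 calls in Ptdss1 knockdown minus control and 35 in Ptdss1 knockdown minus Mertk KO, where leaving out the 2 libraries of fewest detected genes gave 1. Of 300 values of the 15 list genes, many of them likewise bound to the main value, 2 turned, both with library weights. Tnf turned to 0.48 in Ptdss1 knockdown minus Mertk KO and Vegfa to 0.062 in Ptdss1 knockdown minus control. No paired analysis was possible because the labels give no number shared between groups. Intervals of several log2 units for Cxcl1, Cxcl12 and Cxcl13 limit what could be seen.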
